A study of Bos taurus with 2 samples.

Results

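DLL3/HES6 cells were defined as cells of the day 25 bovine embryo with at least 500 detected genes and at least 3 UMIs of DLL3 and HES6 together, a UMI being a molecular tag that counts 1 captured RNA molecule once. They numbered 142 of 4437 deposited cells, 55 of 1973 in replicate 1 and 87 of 2464 in replicate 2. Among cells with 500 or more detected genes they made up 2.84% of 1939 cells in replicate 1 (exact Clopper-Pearson 95% interval 2.14 to 3.68) and 3.60% of 2420 cells in replicate 2 (2.89 to 4.42), with a mean of 3.22% ± 0.54 (SD, n = 2). The intervals cover counting error only, and the shares are shares of sorted cells.

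The samples were Bos taurus chimeric embryos flushed on day 25, from a series on the plasticity of bovine formative embryonic stem cells, and they form 1 group of 2 replicates with no second condition. Embryos were dissociated with papain and DNase, the suspension was sorted through a gate that the labels do not describe, and cells were profiled with a 10x Genomics 3′ droplet kit. No strain, sex, number of embryos or marker of the introduced cells is given, and nothing says that the replicates came from separate embryos, so p-values measure only the spread between these samples, which may be technical. The DLL3/HES6 cells were set against 272 neurons (128 and 144), which had at least 4 of TUBB3, DCX, ELAVL3, ELAVL4 and STMN2 detected and no UMI of DLL3 or HES6, and against 2192 other SOX2-positive cells (932 and 1260) outside both sets.

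Notch signalling acts between neighbouring cells of a neural epithelium. A cell with much ligand on its surface activates Notch receptors on its neighbours, and the released receptor fragment works with the DNA-binding protein RBPJ and Mastermind-like co-activators to switch on repressors such as HES1 and HES5, which hold back neuronal genes. Proneural factors of the basic helix-loop-helix class raise ligand genes and drive a progenitor out of the cell cycle. DLL3 is a divergent ligand that acts within the cell that makes it, and HES6 is a HES family member that opposes HES1 and favours neuronal differentiation. Cells with both transcripts are therefore usually read as young neurons just leaving the progenitor state.

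Within the set, DLL3 and HES6 were both detected in 35 of 55 cells of replicate 1 and 54 of 87 cells of replicate 2. HES6 without DLL3 was found in 18 and 30 cells, and DLL3 without HES6 in 2 and 3. The median cell carried 5 UMIs of the pair in each replicate, the highest 92 in replicate 1 and 41 in replicate 2. These genes chose the cells, so their levels are a description. Expressed in CPM, UMIs scaled to a common total over the summed cells of a set, DLL3 stood at 455 and 468 in the DLL3/HES6 cells and at 4.21 and 3.07 in the other SOX2-positive cells. HES6 stood at 947 and 644 against 23.6 and 25.4.

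At least 4 of the 5 neuron markers were detected in 42 of 55 and 67 of 87 DLL3/HES6 cells, SOX2 in 35 and 52, and both conditions held in 25 and 39. TUBB3, the neuron-specific beta tubulin, was at 741 and 803 CPM in the DLL3/HES6 cells, at 451 and 634 in neurons and at 75.1 and 81.7 in the other SOX2-positive cells. SOX2, a transcription factor of neural progenitors, was at 217 and 278 CPM against 143 and 127 in neurons and 420 and 401 in the other SOX2-positive cells. SOX2 and at least 4 neuron markers thus occurred together in 45.5% and 44.8% of the cells. This was not particular to the set. Of the neurons, which all had at least 4 markers, 50 of 128 and 56 of 144 had SOX2. Because these markers also defined the cells compared, neuronal genes had to be higher than in the other SOX2-positive cells to some degree.

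The set was deeper than the cells it was compared with. A minimum of 3 UMIs can favour deep cells, but its part in the depth was not tested. The median DLL3/HES6 cell held 9377 and 9596 UMIs, against 6749.5 and 7739 in neurons and 5832.5 and 6766.5 in the other SOX2-positive cells. The summed set held 494173 and 805963 UMIs. The median share of UMIs from ribosomal protein genes was 12.6% and 17.8%, against 6.10% and 11.002% in neurons and 4.63% and 8.29% in the other SOX2-positive cells. DLL3/HES6 cells were 1.45% and 1.05% of the cells under a ribosomal protein content of 10% and 5.74% and 7.24% of those at 10% or more. No barcode of the set occurred in both replicates. Marker lists of several other tissues summed to less than in the cells outside the 3 sets. The 16 mesenchyme genes summed to 265 and 269 CPM against 3634 and 6772. The 17 erythroid genes summed to 577 and 576 against 29479 and 48676, and 14 yolk sac and gut genes to 158 and 238 against 2683 and 5054. Of these lists 1, 8 and 8 genes had no UMI in the set. The trophoblast list summed to 747 and 623 CPM against 1685 and 909, with 7 of 16 genes at 0, and the surface ectoderm list to 40.5 and 233 against 1296 and 2111, with 10 of 13 at 0. The trophoblast sum was 751 and 675 CPM in neurons and 448 and 407 in the other SOX2-positive cells. Most of it in the set was GATA3, also a listed neuron identity factor (612 and 583 CPM in cells with SOX2, 632 and 547 in those without). The neural crest list, in contrast, summed to 352 and 352 CPM against 235 and 230 in neurons and 228 and 197 in the other SOX2-positive cells, with 3 of 12 genes at 0, SOX10 among them. TFAP2B, which also stands in the list of neuron identity factors, made up most of that sum. Of 5 tested crest genes only TFAP2B and PAX3 were higher than in neurons, TFAP2B in 8 of 18 other settings. The presomitic and somitic mesoderm list also stood above neurons, at 223 and 256 CPM against 129 and 116. It was at 209 and 171 CPM in the other SOX2-positive cells and 161 and 155 in the cells outside the 3 sets. In the DLL3/HES6 cells 12 of its 21 genes had no UMI. Of 4 tested genes 3 were higher than in neurons, beside 5.69% of all genes, and DLL1, LFNG and PAX3 stand in this list. The part of neural crest or somitic mesoderm in the results was not tested.

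Levels of some neuronal genes and of NES differed along the count that chose the cells, and not all steps went one way. Below the threshold only cells with SOX2 or at least 4 neuron markers were taken, at or above it all cells. Cells just outside the threshold, with 2 UMIs (41 and 56 cells), had INSM1 at 105 and 97.3 CPM, and those just inside, with 3 (17 and 27 cells), at 111 and 67.3. Cells with 6 or more (24 and 43) had INSM1 at 330 and 283. SRRM4 was at 312 and 262 CPM at 2 UMIs, 821 and 288 at 3 and 762 and 578 at 6 or more. NES, a progenitor intermediate filament, stood at 456 and 584 CPM at 2 UMIs and at 308 and 322 at 3, with 284 and 340 at 4 to 5 and 193 and 342 at 6 or more. Within the set, SOX2 was at 55.3 and 139 CPM at 3 UMIs and at 308 and 337 at 6 or more, and its levels below the threshold were raised by the choice of cells there. The median cell of each step held more UMIs overall at 6 or more (9928 and 10710) than at 2 (7481 and 8225.5), and no test was made of these steps.

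**Figure D1:**
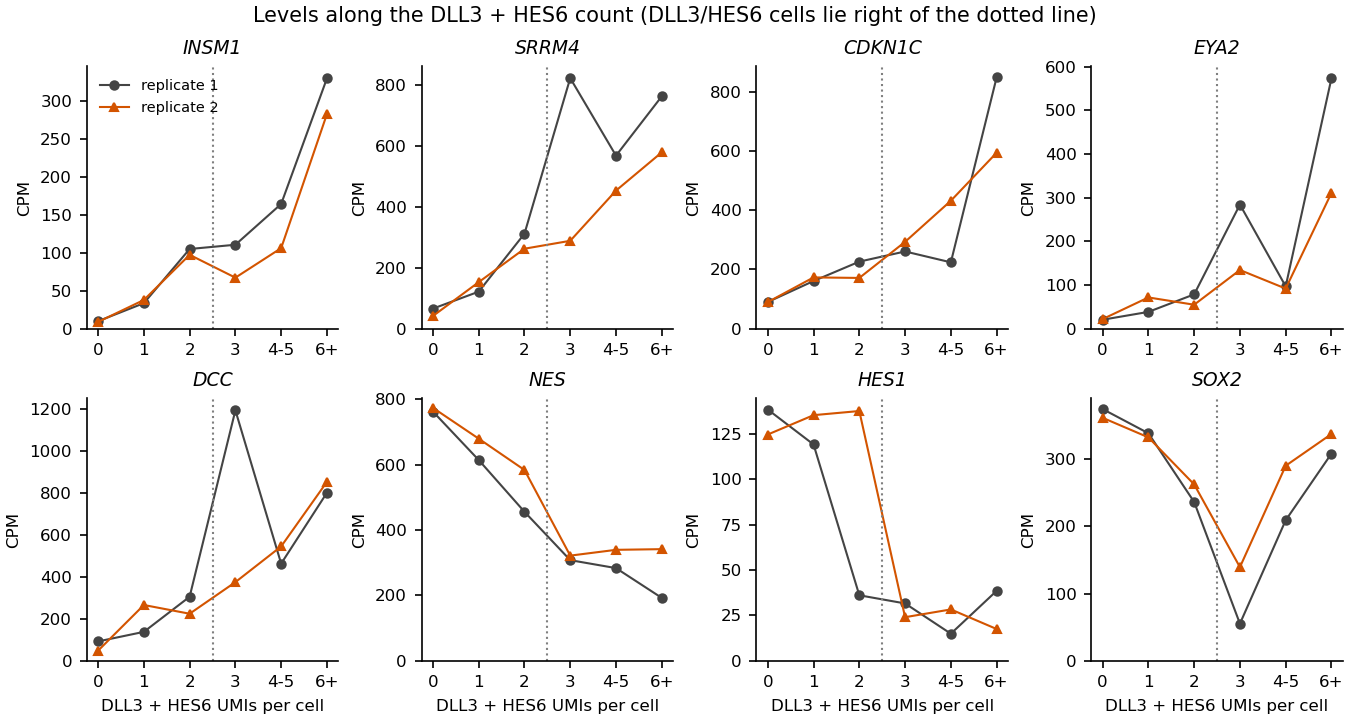
Levels in CPM of 8 genes (vertical axes, linear and starting at 0) in cells grouped by their DLL3 plus HES6 UMI count (horizontal axis; below the threshold only cells with SOX2 or at least 4 neuron markers), with 1 line per replicate and a dotted line at the threshold of 3 UMIs. INSM1 stood at 330 and 283 CPM at 6 or more UMIs, while NES was highest in cells with no UMI of the pair (763 and 774 CPM).

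Across all genes, 10522 were tested with edgeR's quasi-likelihood test on UMIs summed per replicate and cell set, with a replicate block and p-values adjusted by Benjamini-Hochberg at 0.05. Against neurons 1074 genes differed (10.2% of those tested), 599 higher (5.69%) and 475 lower (4.51%) in the DLL3/HES6 cells. Against the other SOX2-positive cells 4256 differed (40.4%), 2280 higher (21.7%) and 1976 lower (18.8%). Fold changes below are log2 values from that fit with their standard errors, or from the same comparison refitted where another setting is named. Values without a replicate come from no fit. They are differences of TMM-scaled log2 CPM within the remaining replicate. A small count was added first, which draws genes with few UMIs toward no difference. Scaling by library totals in place of TMM, edgeR's correction for composition, moved the median of all genes from 0.0046 to -0.17 against neurons and from 0.036 to -0.25 against the other SOX2-positive cells, and the splits then became 296 higher with 818 lower and 1318 higher with 3141 lower. Without the replicate block 319 and 3427 genes differed. With the cells divided at a ribosomal protein content of 10%, 93 genes (under 10%) and 204 genes (10% or more) differed from neurons.

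Among Notch ligand genes, DLL1 was higher and JAG1 lower than in the other SOX2-positive cells. DLL1, the main activating ligand of nascent neurons, was at 34.4 and 68.2 CPM in the DLL3/HES6 cells, 7.996 and 13.7 in neurons and 7.41 and 6.48 in the other SOX2-positive cells. It was higher in both comparisons, by 2.42 ± 0.40 against neurons (edgeR quasi-likelihood adjusted p = 2.87e-05) and by 3.20 ± 0.33 against the other SOX2-positive cells (adjusted p = 7.01e-11). In no replicate did the groups overlap, but the value against the other SOX2-positive cells was 2.37 without replicate 2, and the call against neurons was lost among DLL3/HES6 cells without SOX2. DNER, an atypical neuronal ligand, was at 160 and 180 CPM against 191 and 125 in neurons, with overlapping levels, and against 9.43 and 7.17 in the other SOX2-positive cells, a difference of 4.67 ± 0.22 (edgeR adjusted p = 1.69e-22). JAG1, a ligand of progenitor and boundary cells, was lower than in the other SOX2-positive cells, at 34.4 and 53.4 CPM against 106 and 81.8, by 0.73 ± 0.24 on the log2 scale in the edgeR fit (adjusted p = 0.0116). It passed in 12 of 18 other settings of the analysis, and was -1.35 without replicate 2. DLL4, too sparse for the test, gave 18 UMIs in the set, 1 in the neurons and 12 in the other SOX2-positive cells.

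None of the receptor genes NOTCH1, NOTCH2 and NOTCH3 was higher than in either set. NOTCH1 was at 32.4 and 21.1 CPM against 14.9 and 14.7 in neurons and 24.4 and 27.8 in the other SOX2-positive cells and passed neither test. NOTCH2 was lower than in the other SOX2-positive cells, at 12.1 and 17.4 CPM against 75.8 and 75.8 (log2 -2.02 ± 0.30, edgeR adjusted p = 3.79e-07). NOTCH3, at 22.3 and 19.9 CPM, passed neither test. LFNG, a glycosyltransferase that tunes receptor sensitivity, passed against neurons at 10.1 and 24.8 CPM against 6.85 and 6.41 (log2 1.69 ± 0.52, edgeR adjusted p = 0.028). LFNG passed in 5 of 17 other settings, and was at 0.68 without replicate 2.

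Several nuclear partners of the pathway were higher. MAML3, a Mastermind-like co-activator, was at 595 and 375 CPM against 308 and 324 in neurons and 287 and 293 in the other SOX2-positive cells, differences of 0.75 ± 0.17 and 0.99 ± 0.16 (edgeR adjusted p = 0.00201 and 3.92e-06), the first lost without the replicate block. RBPJ itself was at 417 and 256 CPM against 260 and 252 in the other SOX2-positive cells (log2 0.63 ± 0.16, edgeR adjusted p = 0.00129), a call lost under library totals and among DLL3/HES6 cells without SOX2. The MTG co-repressor genes, whose products bind proneural factors and RBPJ complexes, differed from each other. CBFA2T3 was at 74.9 and 43.4 CPM against 11.4 and 14.7 in neurons and 1.52 and 3.87 in the other SOX2-positive cells, higher by 2.28 ± 0.43 and 4.60 ± 0.40 (edgeR adjusted p = 0.000284 and 4.32e-12). The call against neurons was lost in either range of ribosomal protein content. Without replicate 1 the values were 1.69 and 3.57, and without replicate 2 the value against the other SOX2-positive cells was 5.35. CBFA2T2 was at 243 and 144 CPM against 119 and 114 in the other SOX2-positive cells (log2 0.96 ± 0.17, edgeR adjusted p = 1.3e-05). RUNX1T1, the remaining family member, was at 251 and 195 CPM, below the 442 and 297 of neurons (log2 -0.55 ± 0.16, edgeR adjusted p = 0.0203) and above the 64.5 and 57.9 of the other SOX2-positive cells (2.13 ± 0.16, adjusted p = 4.88e-15). The difference of RUNX1T1 from neurons passed in 11 of 18 other settings, and not without the block.

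Most tested genes of the target list, which includes ID1 to ID4, were lower than in the other SOX2-positive cells. Outside the ID genes only HES1, HES4 and NRARP were lower. HES1 was at 30.4 and 21.1 CPM against 41.1 and 43.0 in neurons and 153 and 145 in the other SOX2-positive cells, lower than the latter by 2.30 ± 0.25 on the log2 scale (edgeR adjusted p = 1.94e-10). ID1, whose product blocks proneural factors, was at 476 and 699 CPM against 1099 and 1255 (log2 -0.74 ± 0.15, edgeR adjusted p = 8.16e-05), and ID2, ID3 and ID4 were lower by 0.82, 0.58 and 0.54. Without the replicate block ID1, ID3 and ID4 passed no more. HES4 and NRARP were lower too (log2 -1.49 and -1.17), on 8 and 10 UMIs in the set. NRARP passed in 5 of 16 other settings, and its value was -0.58 without replicate 1 and -2.14 without replicate 2. HES4 was at -2.12 without replicate 2. HES5 went the other way, at 176 and 170 CPM against 53.7 and 37.5 in neurons (log2 2.11 ± 0.21, edgeR adjusted p = 3.64e-10) and 126 and 126 in the other SOX2-positive cells (0.74 ± 0.17, adjusted p = 0.000578). The latter call held in 13 of 18 other settings and was lost in both ranges of ribosomal content, at 10% or more and under it, as the former was at 10% or more. HES5 came from 10 and 22 cells, with 33.3% and 33.6% of its UMIs in 1 cell of each replicate, and among DLL3/HES6 cells without SOX2 its values were -0.73 against neurons (adjusted p = 0.63) and -2.15 against the other SOX2-positive cells (adjusted p = 0.0021).

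By list, 1 of 4 tested ligand genes was higher than in neurons and none lower, and 2 were higher and 1 lower than in the other SOX2-positive cells. Of 23 receptors and modulators 5 were higher and 1 lower than in neurons, and 7 were higher and 3 lower than in the other SOX2-positive cells. Over all genes 5.69% were higher and 4.51% lower than in neurons, and 21.7% and 18.8% than in the other SOX2-positive cells. Against the latter, receptors and modulators were called at about the share of all genes, 40.4%. Of 10 genes of the target list 1 was higher than in neurons. Against the other SOX2-positive cells 7 were lower, ID1 to ID4 among them, and 1 was higher. The list median was then -0.78, beside 0.036 over all genes. Without the replicate block 1 receptor or modulator was higher than in neurons, and 3 genes of the target list were lower than in the other SOX2-positive cells.

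**Figure D2:**
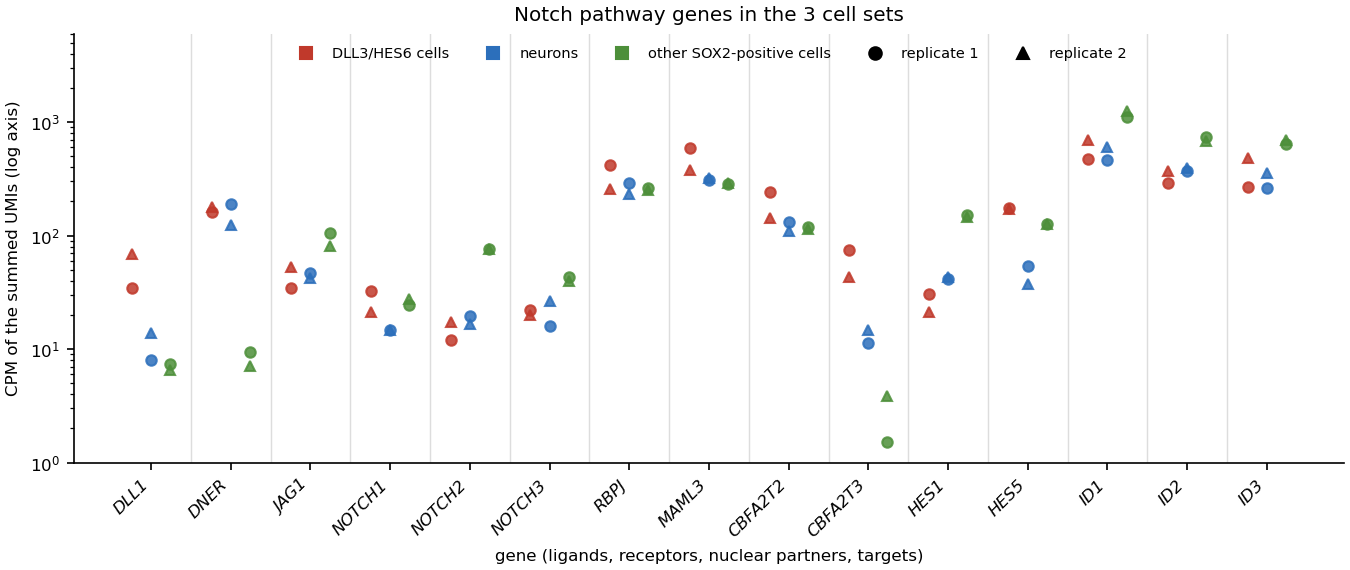
Levels of 15 genes of the Notch lists, ID1 to ID3 among them, in CPM (vertical, log axis). Symbols mark each replicate of DLL3/HES6 cells, neurons and other SOX2-positive cells. DLL1 and CBFA2T3 stood highest in the DLL3/HES6 cells (34.4 and 68.2, and 74.9 and 43.4 CPM), and HES1 and NOTCH2 stood highest in the other SOX2-positive cells (153 and 145, and 75.8 and 75.8 CPM).

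Nearly all proneural and neuronal differentiation factors were higher than in the other SOX2-positive cells, and 10 of 21 were higher than in neurons. Of the 21 tested factors 1 was lower than in neurons (list median 0.59 beside 0.0046 over all genes), and 19 were higher and none lower than in the other SOX2-positive cells (median 3.90 beside 0.036). Over all genes 5.69% were higher than in neurons and 21.7% than in the other SOX2-positive cells. Without the replicate block 6 were higher than in neurons, under a ribosomal protein content of 10% 3 of 18, and in cells thinned to 3000 UMIs 5 of 16. Fits of thinned cells chose the sets anew from the thinned counts, with a threshold of 2 UMIs. They held 43 and 68 DLL3/HES6 cells and 82 and 98 neurons, so depth and choice of cells changed together. Thinned shares of cells with a UMI kept the original sets. INSM1, a zinc finger factor that promotes the terminal divisions of neuronal precursors, was at 229 and 196 CPM against 40.0 and 43.0 and 9.09 and 10.1, higher by 2.51 ± 0.22 (edgeR adjusted p = 6.87e-12) and 4.72 ± 0.21 (adjusted p = 9.61e-24). Among cells under a ribosomal protein content of 10% its difference from neurons was 1.19 (adjusted p = 0.332). With every cell thinned to 3000 UMIs, INSM1 was detected in 34.0% and 32.1% of DLL3/HES6 cells, 8.85% and 14.4% of neurons and 2.05% and 2.21% of the other SOX2-positive cells, and in 0 of 35 and 0 of 84 collagen-rich cells, which served as the background and where a count of 0 allows a share of up to 8.57% and 3.57%. Unthinned shares were 52.7% and 54.0%, 18.8% and 19.4%, 3.33% and 3.81%, and 0% in both, the collagen-rich cells having a median of 10930.5 and 11006 UMIs.

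SRRM4, a splicing factor that switches on neuronal microexons, was at 724 and 481 CPM against 360 and 249 in neurons and 23.9 and 22.2 in the other SOX2-positive cells (log2 1.15 ± 0.16 and 4.95 ± 0.18, edgeR adjusted p = 6.36e-07 and 4.86e-27). ST18, of the MYT1 family of neuronal zinc finger factors, was at 127 and 89.3 CPM against 46.8 and 39.4 and 2.19 and 4.09 (log2 1.47 ± 0.26 and 5.26 ± 0.29, edgeR adjusted p = 0.000115 and 1.36e-19), the second value being 4.53 without replicate 1 and the first lost under a ribosomal protein content of 10%. Its relative MYT1L, a later factor that holds neuronal identity, was instead lower than in neurons at 150 and 58.3 CPM against 211 and 178 (log2 -0.85 ± 0.22, edgeR adjusted p = 0.00929). That difference was -1.43 without replicate 1 and passed in 10 of 18 other settings. EBF1, of the family that follows proneural factors during migration, did not separate the set from neurons, at 552 and 287 CPM against 530 and 439 (log2 -0.10 ± 0.16, edgeR adjusted p = 0.760). It did separate it from the other SOX2-positive cells, at 16.7 and 12.7 CPM (5.05 ± 0.19, adjusted p = 1.54e-25).

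Genes of cell cycle exit were among those above both sets. CDKN1C, the p57 inhibitor of cyclin-dependent kinases, was at 528 and 488 CPM against 146 and 195 in neurons and 85.2 and 89.1 in the other SOX2-positive cells (log2 1.73 ± 0.16 and 2.82 ± 0.16, edgeR adjusted p = 5.27e-11 and 9.16e-20), and passed in all 18 other settings of both comparisons. GADD45G, a growth arrest gene, was at 123 and 181 CPM against 20.6 and 24.7 and 38.1 and 29.1 (log2 2.93 ± 0.27 and 2.50 ± 0.21, edgeR adjusted p = 1.15e-10 and 6.36e-13), calls that were lost among DLL3/HES6 cells without SOX2. Of 16 exit genes 3 were higher and none lower than in neurons, beside 5.69% and 4.51% of all genes (list median 0.24). Against the other SOX2-positive cells 6 were higher and 2 lower, beside 21.7% and 18.8% of all genes (median 0.58).

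Genes of division were mostly lower than in the other SOX2-positive cells. Of 25 S phase genes none was higher and 19 were lower than in those cells (list median -1.07 beside 0.036 over all genes). Of 32 G2/M genes none was higher and 23 were lower (median -1.46), beside 18.8% of all genes. Among cells with a ribosomal protein content of at least 10%, 12 of 23 S phase and 7 of 29 G2/M genes were lower, beside 723 of 9322 genes. NDC80, of the kinetochore, was at 10.1 and 12.4 CPM against 154 and 133 (log2 -3.32 ± 0.32, edgeR adjusted p = 4.53e-11), although among cells with a ribosomal protein content of at least 10% its adjusted p was 0.0515. DTL, of the replication licensing control, was at 28.3 and 22.3 CPM against 192 and 162 (log2 -2.53 ± 0.26, edgeR adjusted p = 1.37e-10), with an adjusted p of 0.101 among cells at 10% or more. Against neurons 1 S phase gene, PCNA, was higher, in 9 of 18 other settings, and of the G2/M genes 1 was higher and 6 were lower. The rest, 24 of 25 and 25 of 32, passed in neither direction. Of the G2/M genes 0 of 26 were lower than in neurons under a ribosomal protein content of 10% and 1 of 29 at 10% or more. In thinned cells 0 of 23 were lower and 1 was higher. CENPE, a mitotic motor, was at 14.2 and 12.4 CPM against 66.3 and 51.3 in neurons (log2 -1.96 ± 0.34, edgeR adjusted p = 6.89e-05) and 109 and 97.8 in the other SOX2-positive cells (-2.67 ± 0.30, adjusted p = 3.98e-10). Thinned cells gave -0.90 for CENPE against neurons, with an adjusted p of 0.435. CENPA, the centromeric histone, was higher than in neurons, at 20.2 and 33.5 CPM against 6.85 and 4.58 (log2 2.49 ± 0.48, edgeR adjusted p = 0.000297), and its UMIs came only from DLL3/HES6 cells with SOX2, at 30.8 and 50.4 CPM there and 0 in the rest. That value was 1.64 without replicate 2.

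DCC and EYA2, named with DLL3 and HES6 as markers of these cells but not part of the rule, were higher than in both other sets. The cells and lists were chosen with earlier results of these data known, so these differences are no independent support for the markers. DCC, the netrin receptor of growing axons, was at 809 and 675 CPM against 400 and 223 in neurons and 47.1 and 38.7 in the other SOX2-positive cells, higher by 1.46 ± 0.16 (edgeR adjusted p = 3.34e-09) and 4.39 ± 0.17 (adjusted p = 1.54e-25). Thinned to 3000 UMIs, it was detected in 45.3% and 41.7% of DLL3/HES6 cells, 32.7% and 33.3% of neurons and 6.79% and 6.72% of the other SOX2-positive cells. In collagen-rich cells the shares were 2.86% and 13.1%. With the sets chosen anew from the thinned counts, the difference of DCC from neurons was 0.37 (edgeR adjusted p = 0.824). EYA2, a transcriptional co-activator of cranial placodes and sensory neurons, was at 370 and 227 CPM against 51.4 and 70.5 and 17.5 and 18.9, higher by 2.40 ± 0.22 (edgeR adjusted p = 3.75e-09) and 4.27 ± 0.21 (adjusted p = 8.67e-17). Both calls of EYA2 passed in all 18 other settings, and the value against neurons was 3.002 without replicate 2. Its UMIs came from 21 of 55 and 34 of 87 cells. EYA1 was higher in both comparisons too, at 123 and 127 CPM against 50.3 and 59.5 and 42.1 and 36.1 (log2 1.35 and 1.97). Of 10 tested genes of placodes and sensory ganglia 2 were higher and 2 lower than in neurons, beside 5.69% and 4.51% of all genes. Against the other SOX2-positive cells 7 were higher and 1 lower, beside 21.7% and 18.8% of all genes.

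Several genes with no place in the lists were also above both sets. SELENOM, which encodes a selenoprotein of the endoplasmic reticulum, was at 281 and 170 CPM against 16.0 and 26.6 in neurons and 46.1 and 49.8 in the other SOX2-positive cells (log2 3.49 ± 0.27 and 2.47 ± 0.20, edgeR adjusted p = 4.57e-11 and 1.28e-11). Its value against neurons was 2.82 without replicate 1 and 4.25 without replicate 2. Under a ribosomal protein content of 10% SELENOM and PPP1R14A stood at 3.18 and 3.13 against neurons (edgeR adjusted p = 0.0908 and 0.156). PPP1R14A, an inhibitor of myosin phosphatase, was at 68.8 and 65.8 CPM against 4.57 and 19.2 and 4.71 and 3.75 (log2 2.59 ± 0.40 and 4.27 ± 0.35, edgeR adjusted p = 1.73e-05 and 1.49e-12), its value against neurons being 1.91 without replicate 1 and 3.90 without replicate 2, and 1.57 in thinned cells (edgeR adjusted p = 0.136). STK33, SMOC1, IGSF8 and TIMM50 were higher by 1.92 to 2.09 against neurons and by 1.85 to 2.92 against the other SOX2-positive cells. Of these STK33, a kinase gene, passed in all 18 other settings of both comparisons, with levels of 111 and 119 CPM against 35.4 and 30.2 in neurons. The remaining genes lost their call against neurons in 1 to 3 settings.

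Genes of maturing neurons were lower than in neurons or did not pass, and most were higher than in the other SOX2-positive cells. Of 35 tested genes of synapses and ion channels none was higher and 10 were lower than in neurons (list median -0.51). Against the other SOX2-positive cells 30 were higher and none lower (median 1.78). Over all genes 4.51% were lower than in neurons and 21.7% higher than in the other SOX2-positive cells. GRIA4, an AMPA receptor subunit, was at 89.0 and 96.8 CPM against 523 and 425 in neurons (log2 -2.15 ± 0.18, edgeR adjusted p = 1.41e-12) and passed in all 18 other settings. NRXN3, a presynaptic adhesion molecule, was at 192 and 297 CPM against 1494 and 1071 in neurons (log2 -2.19 ± 0.20, edgeR adjusted p = 3.14e-07), or -2.79 without replicate 2, and passed in 15 of 18 other settings. DSCAM, a homophilic adhesion molecule of neurites, was at 101 and 135 CPM against 636 and 526 in neurons (log2 -2.11 ± 0.18, edgeR adjusted p = 5.86e-12). LRRC7, a scaffold of the postsynaptic density, was at 46.5 and 48.4 CPM against 278 and 366 (log2 -2.62 ± 0.21, edgeR adjusted p = 1.02e-12). DSCAM and LRRC7 passed in all 18 other settings. Within the set, cells with 3 UMIs of DLL3 and HES6 had GRIA4 at 229 and 312 CPM, DSCAM at 205 and 283 and LRRC7 at 94.8 and 139. Those with 6 or more had 0 and 4.38, 17.1 and 21.9, and 12.8 and 17.5 CPM. NRXN3 went this way in replicate 2 only, at 31.6 and 759 CPM against 77.0 and 54.8.

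CDH18, a type II cadherin, was among the genes furthest below neurons, with 7 UMIs in the set, all in replicate 1, at 14.2 and 0 CPM against 127 and 94.3 (log2 -4.12 ± 0.47, edgeR adjusted p = 2.39e-06). Its value was -2.94 without replicate 2, -1.44 with a threshold of 2 UMIs and -2.23 under a ribosomal protein content of 10%, where the call was lost (edgeR adjusted p = 0.0781). PPARGC1A, a regulator of mitochondrial content, was at 12.1 and 12.4 CPM against 82.2 and 87.0 (log2 -2.62 ± 0.33, edgeR adjusted p = 1.03e-07). HECW1, a neuronal ubiquitin ligase, was at 66.8 and 33.5 CPM against 315 and 208 in neurons (-2.26 ± 0.22) and 6.73 and 6.26 in the other SOX2-positive cells (3.13 ± 0.29).

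Most cytoskeletal and RNA-binding genes of neurons were higher than in the other SOX2-positive cells. Of 37 tested genes 34 were higher and 1 was lower than in the other SOX2-positive cells (list median 2.01), beside 21.7% and 18.8% of all genes. Against neurons 3 were higher, 6 lower and 28 passed in neither direction (median 0.010), beside 5.69% and 4.51% of all genes higher and lower. Without the replicate block none was higher than in neurons and 4 were lower. In thinned cells, with the sets chosen anew, none of 34 was higher and 20 were lower. CELF3, an RNA-binding protein of neurons, was at 95.1 and 70.7 CPM against 67.4 and 65.0 in neurons and 4.04 and 3.07 in the other SOX2-positive cells, the latter a difference of 4.80. MAPT, the tau protein of axonal microtubules, was lower than in neurons at 74.9 and 55.8 CPM against 163 and 136 (log2 -1.05 ± 0.22, edgeR adjusted p = 0.000969) and passed in 14 of 18 other settings.

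Of 45 tested axon guidance genes 5 were higher and 7 lower than in neurons, beside 5.69% and 4.51% of all genes (list median -0.39). Against the other SOX2-positive cells 24 were higher and 6 lower, beside 21.7% and 18.8% of all genes (median 1.19). Against neurons, thinned cells gave 0 higher and 12 lower of 39, and library totals without TMM 3 higher and 13 lower. ROBO2, the receptor of Slit repellents, was at 1285 and 901 CPM against 781 and 655 in neurons (log2 0.76 ± 0.15, edgeR adjusted p = 0.00037, kept in 14 of 18 other settings and not without the block), and 228 and 221 in the other SOX2-positive cells (2.54 ± 0.15, adjusted p = 1.14e-18). SLIT2, a ligand of that receptor, was lower than in both sets, at 101 and 74.4 CPM against 344 and 288 and 525 and 567 (log2 -1.70 ± 0.19 and -2.39 ± 0.18, edgeR adjusted p = 4.06e-09 and 2.84e-15). Summed over the set, the receptor gene was thus higher and the ligand gene lower, and their levels within single cells were not compared. ZEB1, a repressor of epithelial junction genes, was higher in both comparisons, at 1188 and 723 CPM against 562 and 450 and 284 and 264 (1.06 ± 0.16 and 2.04 ± 0.16, edgeR adjusted p = 3.13e-06 and 2.88e-15). TJP1, a tight junction scaffold of the apical surface, was at 144 and 125 CPM against 434 and 365 in the other SOX2-positive cells (log2 -1.29 ± 0.16, edgeR adjusted p = 1.18e-08). ZEB1 and TJP1 passed in all 18 other settings.

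**Figure D3:**
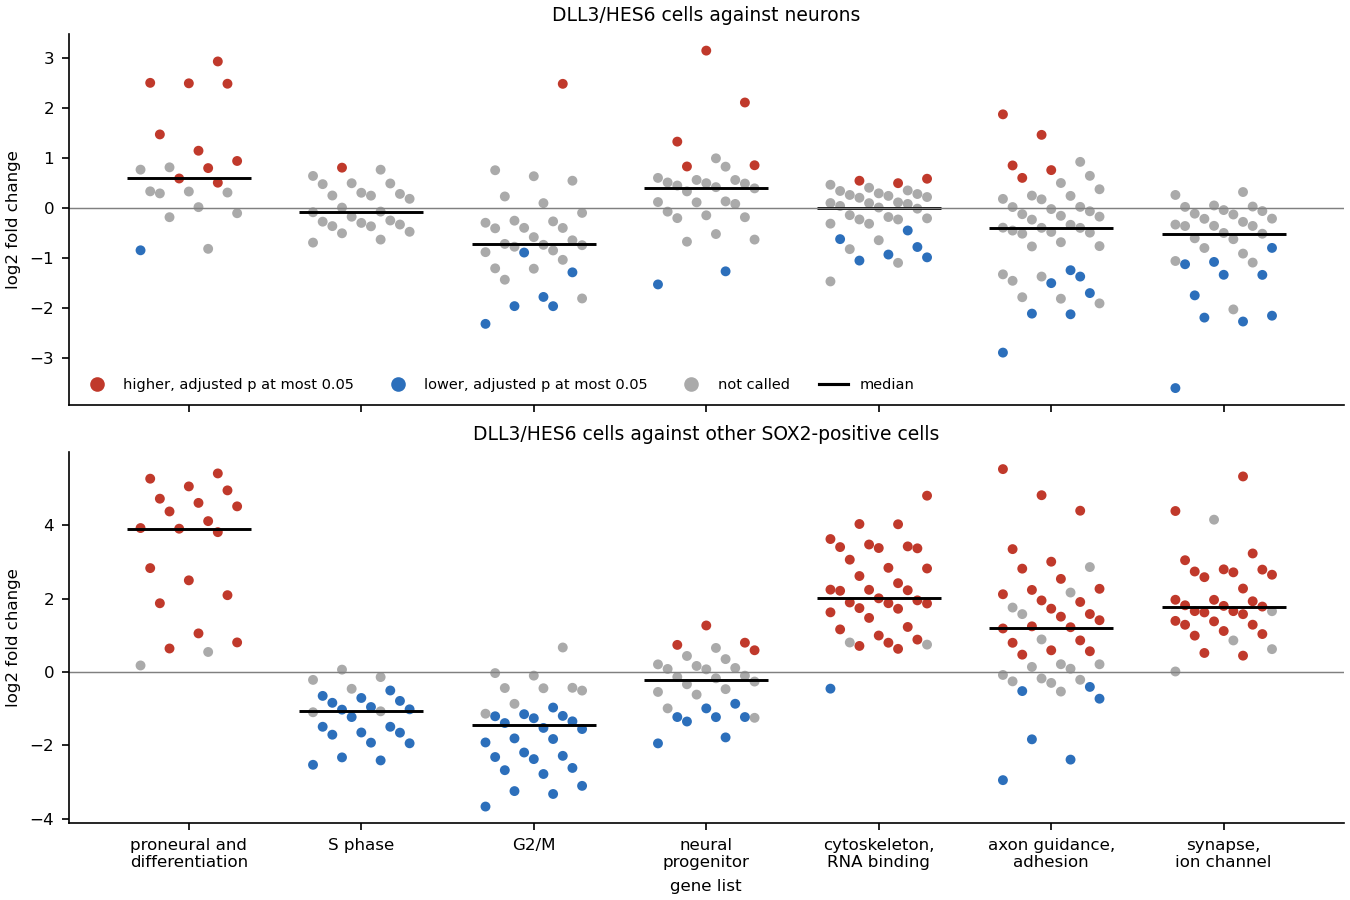
Log2 fold changes (vertical axes) of the tested genes of 7 lists in DLL3/HES6 cells against neurons (upper panel) and other SOX2-positive cells (lower panel), with 1 point per gene coloured by its call and a bar at the list median. The synapse and ion channel list had a median of -0.51 in the upper panel and 1.78 in the lower one.

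Of 30 tested progenitor genes 5 were higher and 2 lower than in neurons, beside 5.69% and 4.51% of all genes. Against the other SOX2-positive cells 4 were higher and 8 lower, a share no larger than the 40.4% called over all genes, and library totals without TMM gave 3 higher and 15 lower. RFX4, a transcription factor of the neural tube, was at 395 and 342 CPM against 153 and 174 in neurons (log2 1.33 ± 0.17, edgeR adjusted p = 8.65e-08) and 377 and 394 in the other SOX2-positive cells (0.21 ± 0.15, adjusted p = 0.279). NES was at 247 and 336 CPM against 820 and 829 in the other SOX2-positive cells (log2 -1.23 ± 0.16, edgeR adjusted p = 1.56e-08), and HMGA2, a chromatin protein of early progenitors, at 44.5 and 67.0 against 283 and 254 (-1.94 ± 0.20, adjusted p = 3.38e-11). THBS1 had 3 UMIs in the set and was 31.9-fold lower than in the other SOX2-positive cells (95% counting interval 10.9 to 155). SHH, the ventral patterning signal, had 6 UMIs, all in replicate 2, against levels of 65.5 and 74.7 CPM in the other SOX2-positive cells.

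Transcription factors of neuron identity were mostly higher than in the other SOX2-positive cells. Of 25 tested, 2 were higher and 2 lower than in neurons, near the 5.69% and 4.51% of all genes. Against the other SOX2-positive cells 18 were higher and 4 lower, beside 21.7% and 18.8% of all genes. HOXB2, a gene of the hindbrain and levels behind it, was at 166 and 176 CPM against 68.5 and 67.8 in neurons and 27.1 and 30.9 in the other SOX2-positive cells (log2 1.50 ± 0.21 and 2.84 ± 0.19, edgeR adjusted p = 9.48e-07 and 5.43e-17). Against neurons its call was lost under a ribosomal protein content of 10% (1.23) and in thinned cells (0.59). The 18 trunk and posterior HOX genes listed summed to 2.02 and 2.48 CPM, and 15 of them had no UMI in the set. TFAP2B, of neural crest, sympathetic and some brainstem and spinal neurons, was at 196 and 182 CPM against 10.3 and 11.1 in the other SOX2-positive cells (log2 4.41 ± 0.21, edgeR adjusted p = 9.65e-23). ONECUT2, of motor neurons and interneurons, was at 166 and 201 CPM against 11.4 and 8.19 (4.54 ± 0.21, edgeR adjusted p = 9.65e-23). FOXP2 was lower than in both sets, at 103 and 140 CPM against 280 and 236 in neurons (log2 -0.89, passed in 13 of 18 other settings) and 634 and 706 in the other SOX2-positive cells (-2.16). LMX1A, of the roof and floor plates, had no UMI in the set and was at least 12.9-fold lower than in the other SOX2-positive cells, taking 3 UMIs over the set as the floor.

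CRABP1, which binds retinoic acid in the cytoplasm, differed between the replicates. It was at 9315 and 19513 CPM against 2533 and 5902 in neurons (log2 1.96 ± 0.45, edgeR adjusted p = 0.152) and 695 and 669 in the other SOX2-positive cells (4.54 ± 0.51, adjusted p = 0.0145, or 5.16 without replicate 1). Within either range of ribosomal protein share it passed in neither comparison.

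CLDN5, a junction gene best known from blood vessels, was higher than in both sets, at 42.5 and 68.2 CPM against 4.57 and 2.75 in neurons and 0.842 and 1.48 in the other SOX2-positive cells (log2 4.13 ± 0.55 and 5.80 ± 0.45, edgeR adjusted p = 3.42e-07 and 7.05e-15). It came from 9 and 23 cells, and the values were 3.21 and 5.06 without replicate 2. Of the 10 endothelial markers, which summed to 54.6 and 80.6 CPM, 4 had no UMI in the set. PECAM1 was at 0 and 1.24 CPM, CDH5 at 2.02 and 0, and KDR at 0 in both. Cells with 6 or more UMIs of DLL3 and HES6 had CLDN5 at 81.3 and 110 CPM, against 7.90 and 14.4 in cells with 3.

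The share of ribosomal protein UMIs differed between the sets, and several differences from neurons changed with it. Of 81 tested ribosomal protein genes 76 were higher than in neurons in the whole sets (median 0.70), and none within either range of ribosomal share or without the replicate block. NRXN3 stood at 440 and 154 CPM in DLL3/HES6 cells under 10% against 2288 and 2441 in neurons under 10% (log2 -2.92, edgeR adjusted p = 0.00339). Among cells at 10% or more it was at 97.9 and 310 against 220 and 341 (-0.38, adjusted p = 0.834). DCC stood at 1297 and 2248 CPM against 614 and 424 under 10%, and at 623 and 522 against 56.5 and 117 at 10% or more (log2 1.70 and 2.72, edgeR adjusted p = 0.0130 and 2.07e-06). EYA2, SRRM4, CDKN1C, STK33, DSCAM, GRIA4 and LRRC7 passed against neurons in both ranges. The lower range held 19 and 15 DLL3/HES6 cells with a median of 7619 and 3797 UMIs, and the part of the ribosomal share in the other differences was not tested.

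**Figure D4:**
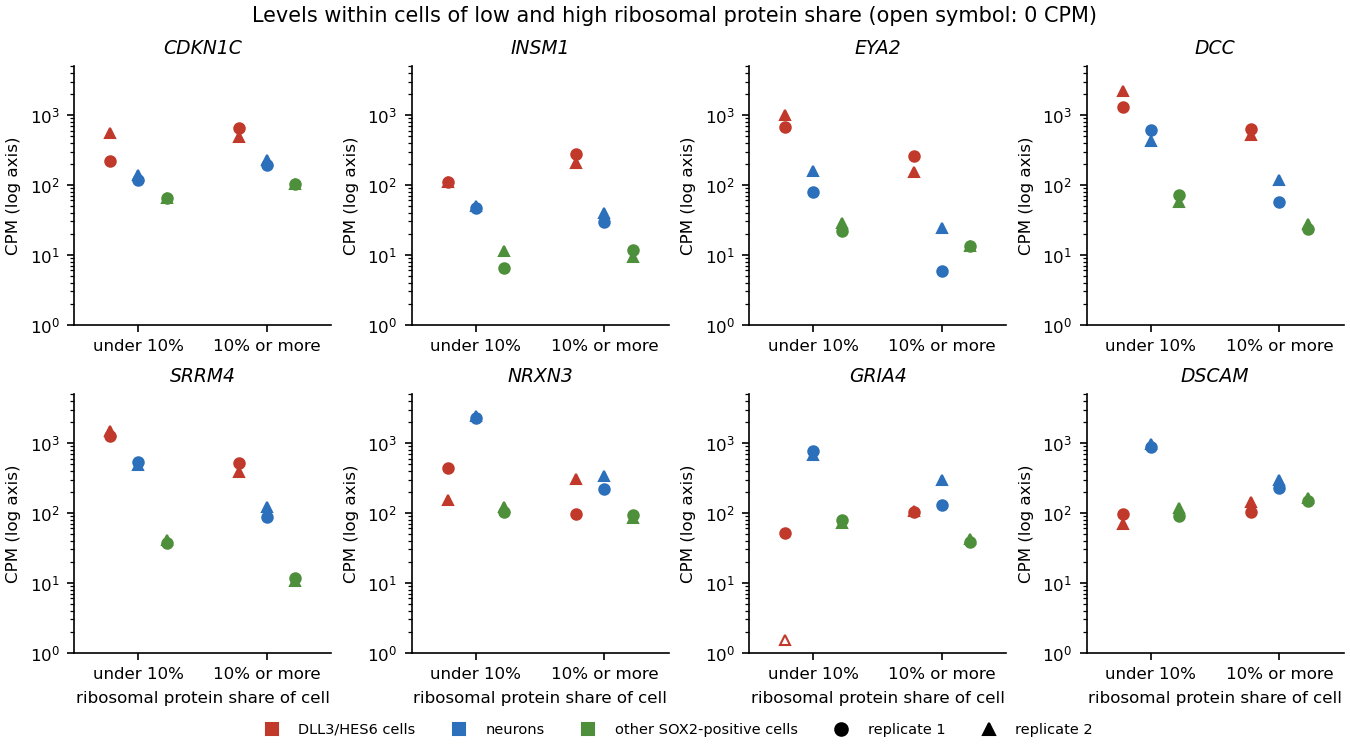
Levels of 8 genes in CPM (vertical, log axes) in cells with a ribosomal protein content under 10% and at or above it, for the 3 cell sets, with 1 symbol per replicate and an open symbol for 0. DCC was above neurons in both ranges (1297 and 2248 against 614 and 424 CPM, then 623 and 522 against 56.5 and 117), while NRXN3 was below them by less at 10% or more (97.9 and 310 against 220 and 341 CPM).

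The DLL3/HES6 cells were not uniform. Those with a SOX2 UMI (35 and 52 cells) and those without (20 and 35) had medians of 9721 and 10646 against 9190.5 and 8194 UMIs, and the following levels are a description. GADD45G was at 160 and 246 CPM in cells with SOX2 and at 53.2 and 51.8 in those without. HES5 was at 237 and 254 CPM against 59.1 and 3.70. EBF1 went the other way, at 289 and 142 CPM with SOX2 and 1058 and 573 without. DCC differed little between them, at 803 and 678 CPM against 822 and 669. Cells without SOX2 thus held less GADD45G and HES5 and more EBF1.

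The deposited table has a row for GFP. GFP stood at 2633 and 2915 CPM in the DLL3/HES6 cells, 1547 and 2169 in neurons, 2143 and 2246 in the other SOX2-positive cells, and 725 and 651 in the cells outside the 3 sets. At least 1 GFP UMI was found in 54 of 55 and 82 of 87 DLL3/HES6 cells and in 512 of 824 and 534 of 929 cells outside the sets, whose medians were 3511.5 and 3555 UMIs. No label ties GFP to a cell or an embryo, and introduced and host cells cannot be told apart here.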

How the data were processed

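Cells of chimeric day 25 bovine embryos were profiled in 2 replicates. The authors deposited 1 table of unnormalized UMI counts, with genes against the cells of both replicates. Per the submitters' processing notes they used Cell Ranger, the bosTau9 genome, R 4.1.2 and Seurat 4.3.0. Neither Cell Ranger's version nor the gene annotation is recorded in the labels or headers. The table holds 17846 genes, of which 17405 symbols were matched to the RefSeq gene table of assembly ARS-UCD2.0. Cells had 201 to 3999 detected genes, and those with 500 or more were kept (1939 and 2420). The replicates share 6 barcodes, none of them in the DLL3/HES6 cells. No doublet caller was run. An alternative without the deepest 5% of cells kept 50 and 76 DLL3/HES6 cells, and doublets of ordinary depth would remain in it.

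UMI counts were summed per replicate and cell set, giving 6 sums. They were tested with edgeR 4.0.16 in R 4.3.3 (TMM, filterByExpr, quasi-likelihood test, Benjamini-Hochberg adjustment at 0.05 over 10522 genes) with the replicate as a block, because the sets of 1 number come from the same suspension. Correlations of same-numbered deviations were 0.162, 0.132 and 0.254. The fit has 2 residual degrees of freedom and a median of 45.01 prior degrees of freedom. The spread behind each p-value was thus mostly borrowed from other genes. DLL3, HES6, SOX2 and the 5 neuron markers chose the cells and were given no p-value. Both comparisons share the sums of the DLL3/HES6 cells. Alternatives were DESeq2 1.42.0, no block, library totals, no low-count filter, other thresholds and markers, a split by ribosomal protein content, and thinning to 3000 UMIs. After thinning, the sets were chosen anew from the thinned counts, with a threshold of 2 UMIs. The alternatives restricted to DLL3/HES6 cells without SOX2 or with at least 4 neuron markers were chosen after seeing the data. The script was tested on simulated data. Tables and figures were made with Python 3.11.15, numpy 2.4.6, pandas 2.3.3, scipy 1.17.1 and matplotlib 3.10.9.

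Named genes were those with the largest changes at 50 CPM or more in the higher set (10 in each direction per comparison), the 12 furthest above both sets, all Notch genes, DCC, EYA2 and up to 4 genes of each list per comparison. A selection of them is described, and some results are not reported here. The cells and the lists were chosen with earlier results of these data known.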

Additional observations from a re-analysis of the deposited data

How the results depend on the processing

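Counts of genes that differed from neurons moved from 1074 (599 higher, 475 lower) to 1915 (1055, 860) with 3 neuron markers, 426 (232, 194) with DESeq2, 302 (135, 167) for DLL3/HES6 cells without SOX2, 319 (128, 191) without the replicate block, 93 (37, 56) under a ribosomal content of 10%, 204 (118, 86) at or above it and 500 (227, 273) in thinned cells. A threshold of 2 UMIs gave 692, 326 of them higher, a threshold of 5 gave 751 lower, and library totals gave 296 higher and 818 lower. Against the other SOX2-positive cells the counts were 2258 (1330, 928) with DESeq2, 1756 (922, 834) and 1816 (1093, 723) in the lower and higher ribosomal range, 1523 (958, 565) in thinned cells, 1318 higher and 3141 lower with library totals, and 1483 higher for DLL3/HES6 cells without SOX2. The strata, the cells without SOX2 and the thinned cells rest on fewer cells or UMIs, and the thinned sets were also chosen anew. The cause of these changes was not tested. The share of DLL3/HES6 cells was 5.76% with a threshold of 2, 1.76% with 5 and 2.02% with both genes required, and 2.84% to 3.60% leaving out either replicate. Counts of genes cannot be given without 1 replicate, since 1 sum a set leaves no residual degrees of freedom.

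Directions turned for HES5 (-0.73 and -2.15), CENPA against neurons (-7.07, on 0 UMIs, so no bound) and PAX3 against the other SOX2-positive cells (-1.26) in DLL3/HES6 cells without SOX2, for EBF1 against neurons (0.50 with 3 neuron markers, 0.78 without SOX2), and in thinned cells for FOXP2 (0.31) and TFAP2B (-0.66) against neurons; the cause was not tested. Of the named genes followed across settings, 13 of 52 calls against neurons and 46 of 73 against the other SOX2-positive cells held in every setting run. Depth limits genes under about 10 UMIs in the set, such as HES4 and NRARP.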
